A study of Mus musculus with 18 samples.

Results

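The Hox genes described here are all protein-coding genes of the 2 deposited gene count tables whose symbol places them in cluster A, B, C or D of the mouse genome. They were selected on their symbol and, since a row in the table of diets depends on it, on their mean count. They are 31 genes of the 25005 that had a row in either table, and of the 39 Hox genes in the GENCODE M21 annotation. Values are given for 30 of them, and all counts, sums and shares below are over those 30. RNA was sequenced from tumours that MC38 cells, a colon carcinoma line of the mouse, formed in the liver after injection into the spleen. The first table holds 5 tumours of the genotype WT from a low-fat diet (LFD) and 5 of the same genotype from a high-fat diet (HFD). The other holds 8 tumours from a high-fat diet, of which 4 carry the genotype label shControl (shCon) and 4 the label shYap, a short hairpin against Yap. All 18 libraries came from liver tumour tissue, so host cells and tumour cells were measured together, and all mice are labelled WT. The labels do not say which cells carried the hairpins, give no age or sex, and do not say whether libraries came from separate mice, so p-values measure the spread between these libraries.

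Hox genes encode homeodomain transcription factors that stand in 4 clusters, one on each of 4 chromosomes. Within a cluster the genes share a direction of transcription and are numbered 1 to 13, and genes of the same number in different clusters are paralogs. In the embryo low numbers are active early and towards the head, and high numbers late and towards the tail, so the set of active Hox genes records a position along the body. Adult cells keep much of this pattern, and fibroblasts of different body sites differ in it. In the gut the caudal factors Cdx1 and Cdx2 stand upstream of Hox genes, and number 13 genes pattern the hindgut.

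The libraries held 17766207 to 18474191 estimated counts in the LFD and HFD table and 17207214 to 21309950 in the other, and each table was normalised alone. The targeted gene did not mark the hairpin label: Yap1, the coactivator Yap itself, stood at 78.1, 82.4, 73.8 and 77.4 CPM (counts per 1000000 counts) in the libraries labelled shCon and at 71.6, 80.0, 81.4 and 70.5 CPM in those labelled shYap, and these groups overlap. Several libraries or groups stood apart. Xist, which coats the inactive X chromosome of female cells, was at 72.9 to 135 CPM in LFD and at 0.0505 to 0.293 CPM in HFD. The 4 Y-linked genes looked at summed to 37.1 to 133 CPM in LFD and 23.0 to 32.8 CPM in HFD, so every LFD library held both kinds of RNA. Both measures were higher in LFD, the labels do not give the sex of the mice, and the part of sex in the results cannot be told apart from the diet. HFD replicates 1 and 2, and likewise 3 and 4, were closer to each other than the rest, with a biological coefficient of variation within the pair of 7.31% and 6.37%, where other pairs of HFD libraries had 12.7% to 24.5%. The summed level of 12 hepatocyte markers ran from 11458 to 106839 CPM in LFD and from 552 to 5094 CPM in HFD, and LFD replicate 5 had the highest. In the other table it ran from 11822 to 42871 CPM in shCon and from 14134 to 72359 CPM in shYap.

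Most of the Hox signal came from clusters A and C in all 4 groups. Per kilobase of exon, the scale on which genes can be compared, Hoxc10, a gene of the lumbar level and hindlimb, was the highest in every group, with a mean level of 30.8 ± 10.01 CPM per kb (SD, n = 5) in LFD and 37.8 ± 2.35 in HFD. It stood at 42.8 ± 3.67 CPM per kb (SD, n = 4) in shCon and 45.7 ± 16.02 in shYap. Next in LFD came Hoxc6 at 11.3 ± 1.87, Hoxa10 at 9.83 ± 3.39, Hoxa11 at 9.703 ± 3.55 and Hoxc11 at 9.12 ± 2.77 CPM per kb, and their spreads overlap. In HFD the order after Hoxc10 was Hoxc6 at 25.7 ± 5.51, Hoxd8 at 12.6 ± 0.661 and Hoxc11 at 10.2 ± 1.11 CPM per kb. Hoxb4 was the highest of cluster B, at 1.53 ± 0.306 CPM per kb in LFD and 0.947 ± 0.119 in HFD.

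In CPM, Hoxc10 was at 47.4, 65.5, 74.98, 74.8 and 31.1 in the 5 LFD libraries and at 69.9, 67.8, 79.6, 71.4 and 71.8 in the 5 HFD libraries. These groups overlap, and LFD replicate 5 was the lowest library. Hoxa10, a uterine and limb patterning gene and the highest of cluster A per kb in LFD, was at 29.7, 33.7, 45.9, 35.97 and 15.5 CPM in LFD and 32.6, 28.4, 33.9, 31.4 and 26.3 CPM in HFD. Here too the groups overlap and LFD replicate 5 was lowest. In the libraries of the hairpin table Hoxc10 was at 89.7, 83.3, 80.97 and 72.7 CPM for shCon and 65.8, 75.2, 133 and 75.3 CPM for shYap, with shYap replicate 3 the highest library.

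Of the 30 genes, 29 had a row in both tables and Hoxd9 only in the LFD and HFD table. Hoxb1, Hoxb13, Hoxc12, Hoxd1, Hoxd10, Hoxd11, Hoxd12 and Hoxd13 had a row in neither and are not analysed here. The LFD and HFD table holds no gene with a mean under 1 estimated count per library, so having a row there already depends on level. Just inside that bound lay Hoxb9, with a mean of 1.3 counts, and Hoxd9, with 1.4. Hoxb9 had 0, 5, 0, 5 and 3 counts in LFD and 0 in each HFD library, where a count of 0 allows up to 3. Hoxd9 had 0, 0, 0, 1 and 0 counts in LFD and 0, 6, 1, 1 and 5 in HFD. In the hairpin table Hoxb9 had a mean of 0.375 counts. Hoxb5, Hoxb6, Hoxb7, Hoxb8, Hoxb9 and Hoxd9 stayed under 1 CPM in every library of the diet table and were not tested there, so 24 of 30 members were. Of the 29 genes of the hairpin table, 25 were tested, all but Hoxb6, Hoxb7, Hoxb8 and Hoxb9.

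**Figure D1:**
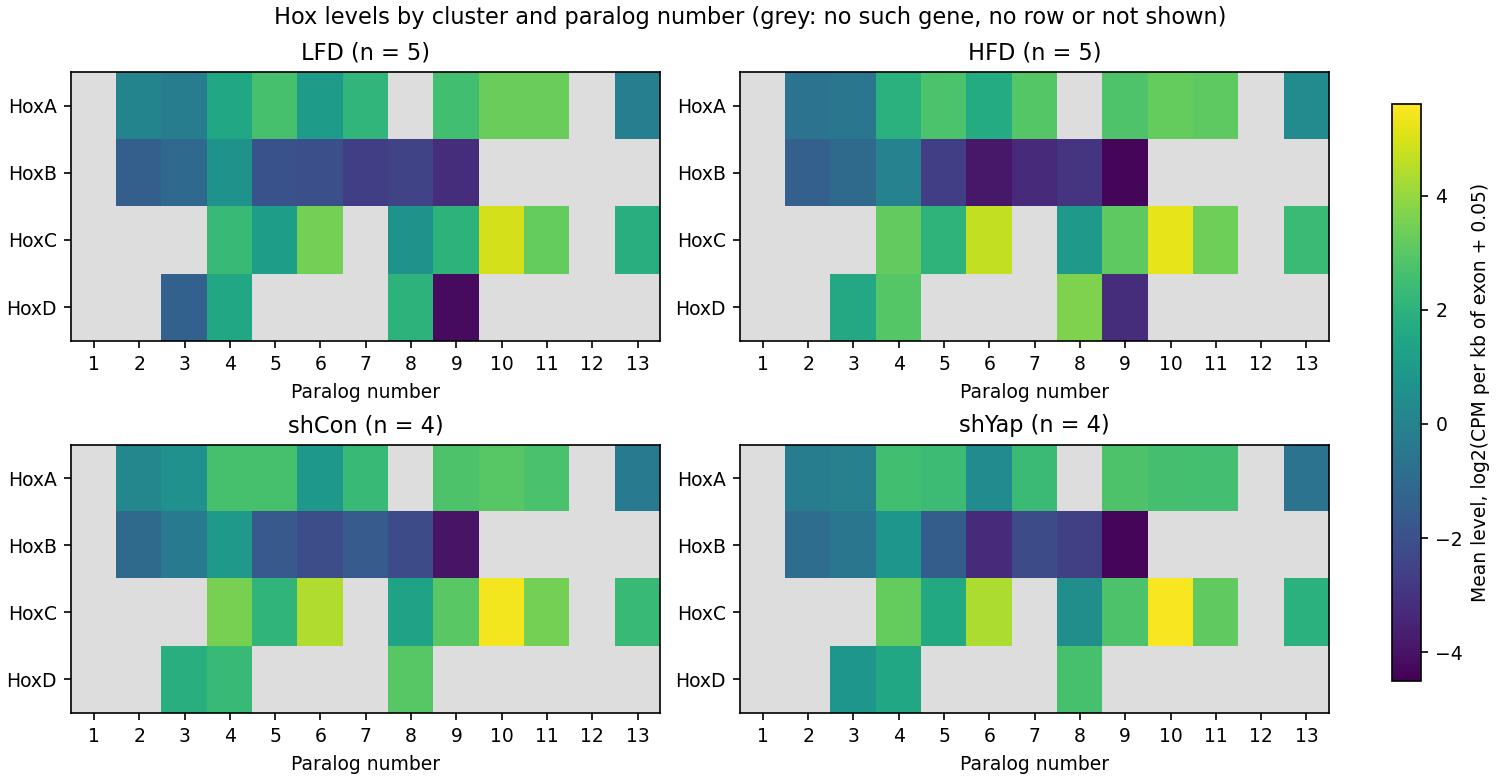
Mean level of the Hox genes, as log2 of CPM per kb of exon plus 0.05 (colour), by cluster (rows) and paralog number (columns) in LFD, HFD, shCon and shYap; each table was normalised alone, and grey marks numbers with no such gene, with no row or not shown. Cluster C number 10 is the brightest cell of each panel, and numbers 5 to 9 of cluster B are among the darkest.

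Of the 24 Hox genes tested, 9 were higher and 2 lower in HFD tumours than in LFD tumours. Hoxa6, Hoxa7, Hoxc4, Hoxc5, Hoxc6, Hoxc9, Hoxd3, Hoxd4 and Hoxd8 rose, and Hoxa2 and Hoxb4 fell. Among all 16340 genes tested, 19.4% were called higher, 21.6% lower and 41.1% either way (edgeR, adjusted p under 0.05). Before adjustment, 12 of the 24 Hox genes and 50% of all genes tested had p under 0.05. The groups did not overlap for 8 Hox genes that were higher and 2 that were lower in HFD, against 15.8% and 14.8% of all genes tested. The median log2 fold change was 0.34 over the Hox genes tested and -0.00 over all genes tested. The family was proposed with results of this comparison known, so these counts describe it and support nothing.

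By cluster, 3 of 3 tested genes of cluster D were higher, 4 of 8 of cluster C, 2 of 10 of cluster A and 0 of 3 of cluster B. One gene each of clusters A and B was lower, and none of C or D. The median log2 fold changes were 1.63 in D, 0.72 in C, 0.17 in A and 0.06 in B. By number, 7 of 11 tested genes numbered 4 to 8 were higher and 1 was lower, with a median of 0.81. Of the 8 genes numbered 9 to 13, 1 was higher and 0 lower, with a median of 0.27, and of the 5 numbered 1 to 3, 1 was higher and 1 lower, with a median of 0.06. The 13 tested Hox genes that were not called had log2 fold changes between -0.32 and 0.57.

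**Figure D2:**
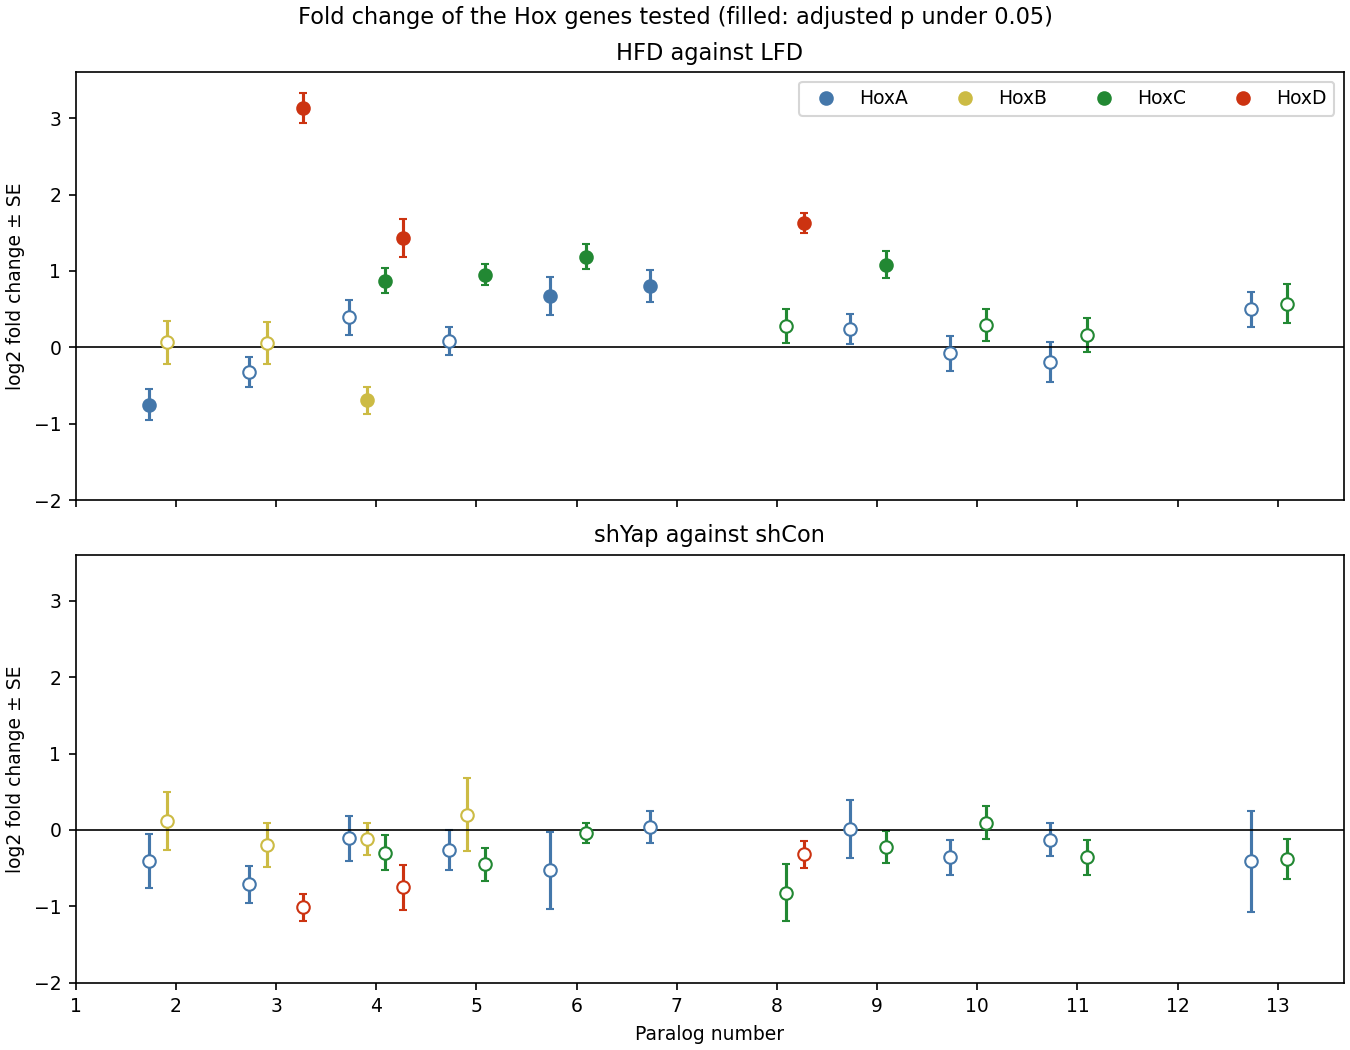
Log2 fold change (points) with its standard error (bars) of the Hox genes tested, by paralog number and cluster, for HFD against LFD (top) and shYap against shCon (bottom); filled points passed adjusted p under 0.05. In the upper panel 11 points are filled, from Hoxd3 at 3.13 down to Hoxa2 at -0.75, and in the lower panel none is.

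Cluster D had the largest changes. It lies on chromosome 2 (GRCm38), and its genes with a row span Hoxd9 to Hoxd3 on the plus strand. Hoxd8, a trunk-level gene at chr2:74704615-74707933 that shares no exon base with another gene, was at 9.202, 12.5, 13.3, 12.3 and 8.3 CPM in LFD and at 33.2, 34.1, 32.4, 36.8 and 35.7 CPM in HFD. Each HFD library lay above each LFD library. The means were 11.1 ± 2.23 and 34.5 ± 1.81 CPM (SD, n = 5 each), a 3.09-fold rise with a log2 fold change of 1.63 ± 0.13 (SE) and adjusted p = 5.71e-05.

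Hoxd3, a neck-level gene at chr2:74711927-74748442, was at 0.961, 1.45, 1.85, 1.15 and 1.63 CPM in LFD and at 9.32, 12.7, 14, 12.9 and 13.01 CPM in HFD. The groups stood far apart, with the lowest HFD library, replicate 1, above every LFD library. Its means were 1.41 ± 0.358 and 12.4 ± 1.79 CPM, an 8.75-fold rise (log2 fold change 3.13 ± 0.20 (SE), adjusted p = 1.93e-05). Hoxd4, a further neck-level gene at chr2:74711929-74729160, was at 6.11, 9.02, 12.5, 9.32 and 4.64 CPM in LFD and 17.1, 18.6, 24.9, 27.1 and 24.8 CPM in HFD, again without overlap. It rose 2.69-fold, with a log2 fold change of 1.43 ± 0.25 (SE) and adjusted p = 0.00198.

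These neighbours are not separate in the annotation. Of the exon bases of Hoxd3, 62.3% also belong to Hoxd4 or to the predicted gene Gm28230 on the same strand, and for Hoxd4 the share is 52.3%, so how their counts divide depended on the counting. Summed to 1 feature, the counts of Hoxd3, Hoxd4 and Gm28230 were 11.3, 16.4, 21.4, 16.8 and 13.6 CPM in LFD and 45.2, 52.0, 68.1, 64.9 and 56.4 CPM in HFD. The sum did not overlap between the groups and rose with a log2 fold change of 1.85 ± 0.18 (SE) and adjusted p = 0.000134, less than Hoxd3 alone.

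The starts of these genes are shown because their RNA moved together. The bases before each start are from RefSeq (GRCm38.p6), where 22 Hox symbols had an entry. They are given 5′ to 3′ up to the base before the start, and capitals mark the CCAAT box and the TATA core, with ATTGG and TTTATA being the same motifs on the other strand.
Hoxd8 chr2:74704365-74704614 (plus strand): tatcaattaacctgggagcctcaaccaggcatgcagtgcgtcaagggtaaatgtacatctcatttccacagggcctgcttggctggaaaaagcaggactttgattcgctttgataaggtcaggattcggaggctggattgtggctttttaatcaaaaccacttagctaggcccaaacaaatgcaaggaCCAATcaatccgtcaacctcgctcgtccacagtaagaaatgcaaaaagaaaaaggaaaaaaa
Hoxd3 chr2:74711743-74711992 (plus strand): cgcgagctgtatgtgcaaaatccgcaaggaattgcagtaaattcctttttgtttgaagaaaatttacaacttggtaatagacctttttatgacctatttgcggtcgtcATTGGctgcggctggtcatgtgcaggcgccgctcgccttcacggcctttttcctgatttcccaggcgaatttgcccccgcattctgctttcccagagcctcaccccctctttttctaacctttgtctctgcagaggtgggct
Hoxd4 chr2:74721728-74721977 (plus strand): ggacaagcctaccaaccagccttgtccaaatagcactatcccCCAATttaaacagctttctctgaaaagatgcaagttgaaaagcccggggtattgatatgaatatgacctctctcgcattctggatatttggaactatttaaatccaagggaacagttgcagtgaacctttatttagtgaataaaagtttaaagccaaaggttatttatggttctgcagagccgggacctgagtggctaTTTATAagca
The windows of Hoxd8 and Hoxd3 lie within the span of Hoxd3os1, which is on the minus strand. The end of the Hoxd3 window and all of the Hoxd4 window lie inside the GENCODE spans of Hoxd3 and Hoxd4. CCAAT occurs once in each of the 3 windows of 250 bases, on either strand, and in 33.8% of the 32851 promoter windows of that length in the table. TATAAA occurs in the Hoxd4 window only, on the minus strand, and in 12.4% of all windows. GGAATG, the core that TEAD factors, the DNA-binding partners of Yap, recognise, occurs in none of the 3 windows and in 12.6% of all. The Pbx-Hox core TGATTNAT, found in 2.82% of windows, does not occur in the 3 either. Their GC content was 44.4%, 49.2% and 40.4% for Hoxd8, Hoxd3 and Hoxd4, against a median of 52.4% over all windows.

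**Figure D3:**
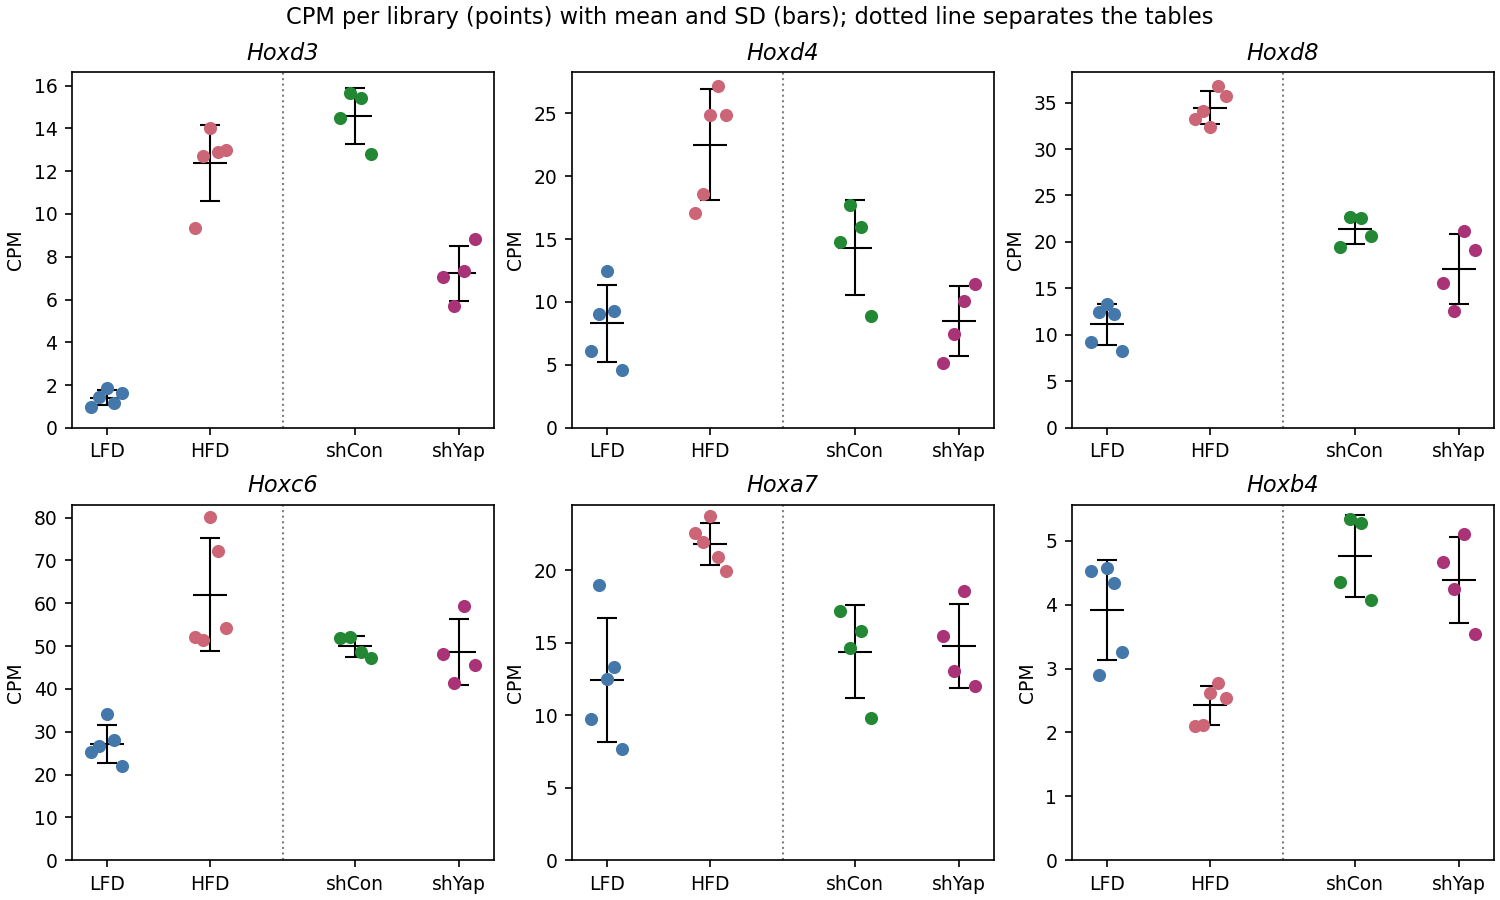
CPM of Hoxd3, Hoxd4, Hoxd8, Hoxc6, Hoxa7 and Hoxb4 in each library (points) with the group mean and SD (bars) for LFD, HFD, shCon and shYap; a dotted line separates the 2 tables, which were normalised alone. Hoxd3 and Hoxd8 in HFD lie clear of LFD, Hoxd3 in shYap lies clear of shCon, and Hoxb4 is lower in HFD than in LFD.

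The noncoding RNAs of cluster D moved the same way. Haglr, an antisense RNA beside Hoxd3, was at 0.275, 0.363, 0.599, 0.471 and 0.976 CPM in LFD and 2.24, 1.72, 3.22, 3.07 and 2.64 CPM in HFD, with no overlap (log2 fold change 2.28 ± 0.32 (SE), adjusted p = 0.000704). Hoxd3os1, which runs opposite to Hoxd8 and Hoxd3, rose from 1.61 ± 0.518 to 4.43 ± 0.423 CPM, with a log2 fold change of 1.46 ± 0.22 (SE) and adjusted p = 0.000997. Since the sources used here do not give the strand setting of the counting, reads of a gene and of its antisense partner cannot be told apart. The genes that flank the cluster changed less. Lnpk, a protein of the endoplasmic reticulum, rose from 23.4 ± 4.94 to 33.96 ± 2.01 CPM (log2 fold change 0.54 ± 0.14 (SE), adjusted p = 0.0104). Mtx2, a mitochondrial import protein on the other side, rose from 59.1 ± 3.98 to 72.5 ± 2.91 CPM, with a log2 fold change of 0.29 ± 0.07 (SE) and adjusted p = 0.00605.

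**Figure D4:**
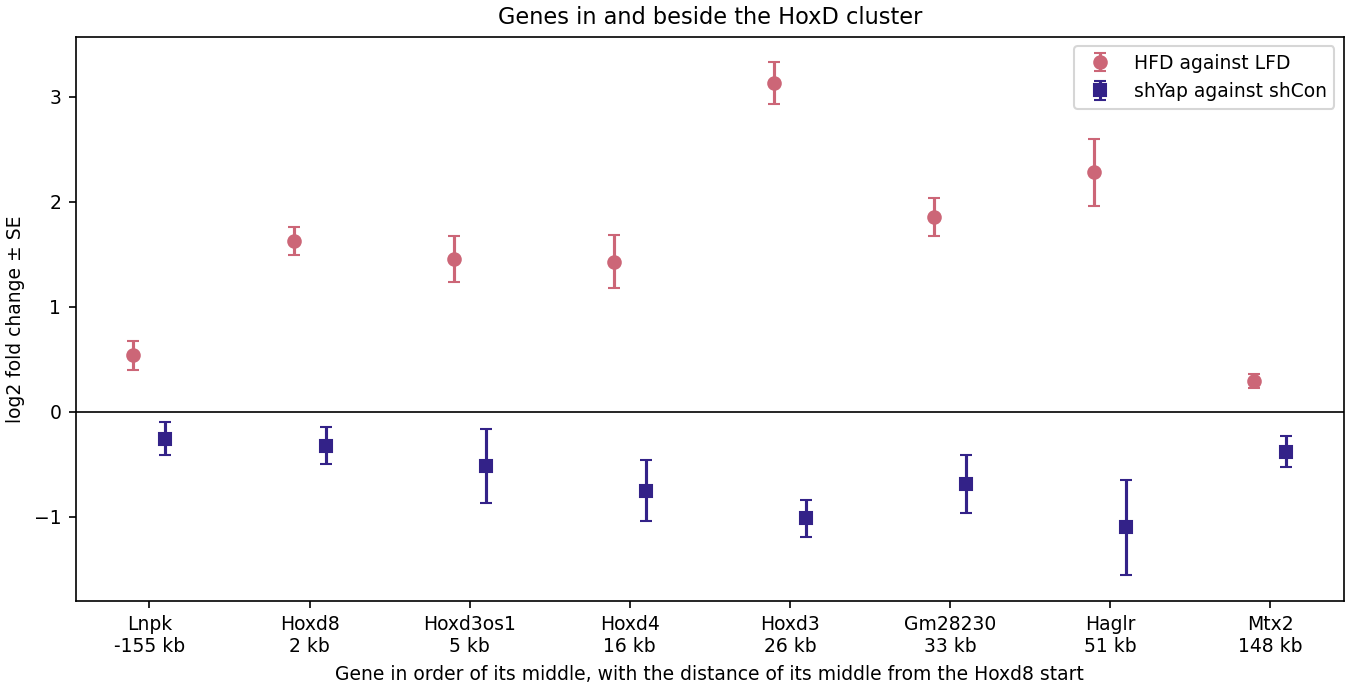
Log2 fold change (points) with its standard error (bars) of genes in and beside cluster D, ordered by the distance of the gene's middle from the Hoxd8 start in kb, for HFD against LFD (circles) and shYap against shCon (squares). The values for HFD are largest at Hoxd3 (3.13) and smallest at the flanking gene Mtx2 (0.29), and all squares lie below 0 while none passed the test.

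In cluster C, on chromosome 15, the genes numbered 4, 5, 6 and 9 rose and those numbered 8, 10, 11 and 13 were not called. Hoxc6, a thoracic-level gene, was at 25.2, 26.7, 34.1, 28.02 and 21.9 CPM in LFD and 52.1, 51.3, 80.1, 72.2 and 54.3 CPM in HFD, without overlap. It rose 2.28-fold (log2 fold change 1.19 ± 0.16 (SE), adjusted p = 0.000581). Hoxc9, also thoracic, was at 7.49, 11.5, 12.04, 11.4 and 6.67 CPM in LFD and 21.98, 19.4, 23.98, 20.5 and 18.5 CPM in HFD, again without overlap, and rose with a log2 fold change of 1.08 ± 0.18 (SE) and adjusted p = 0.00134. Hoxc5, active from the neck to the upper trunk, was at 6.39, 7.77, 5.67, 7.59 and 5.29 CPM in LFD and 14.3, 11.2, 13.05, 13.3 and 11.6 CPM in HFD, and 5.4% of its exon bases are shared with Hoxc10. Its groups did not overlap either (log2 fold change 0.95 ± 0.14 (SE), adjusted p = 0.000797).

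Hoxc4 was at 10.4, 15.9, 11.2, 15.3 and 10.2 CPM in LFD and 25.1, 19.3, 26.7, 24.3 and 20.2 CPM in HFD. Each HFD library was above each LFD library, and the log2 fold change was 0.87 ± 0.16 (SE) with adjusted p = 0.00233. The uncalled genes of the cluster overlapped between the groups. Hoxc13, a gene of hair and nail, came nearest to a call, at 7.42, 12.1, 9.86, 9.79 and 3.74 CPM in LFD and 13.7, 11.5, 12.8, 13.1 and 13.2 CPM in HFD. It was called higher without LFD replicate 2 and also without LFD replicate 5. Hoxc8 ranged from 2.44 to 6.38 CPM in LFD and 4.19 to 6.09 in HFD, and Hoxc11 from 8.63 to 22.4 in LFD and 17.1 to 22.5 in HFD. Hotair, the noncoding RNA of cluster C, had means of 2.88 ± 0.689 and 2.55 ± 0.345 CPM in LFD and HFD and was not called.

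In cluster A, on chromosome 6, 2 genes rose and 1 fell. Hoxa7, a trunk-level gene, was at 9.75, 18.97, 12.5, 13.4 and 7.65 CPM in LFD and 22.6, 21.9, 23.7, 20.9 and 19.95 CPM in HFD. The groups did not overlap, though LFD replicate 2 came close to the HFD libraries (log2 fold change 0.81 ± 0.21 (SE), adjusted p = 0.011). With HFD replicates 1 and 2 and replicates 3 and 4 summed, since those pairs were so close, Hoxa7 was not called (adjusted p = 0.0571). Hoxa6, another trunk-level gene, was at 1.305, 1.61, 2.45, 2.15 and 1.38 CPM in LFD and 2.99, 2.02, 3.53, 3.57 and 2.2 CPM in HFD, with overlap, and its log2 fold change was 0.67 ± 0.25 (SE) with adjusted p = 0.0489. The call of Hoxa6 rests on single libraries. Hoxa6 was not called without LFD replicate 1 (adjusted p = 0.107), 2 (0.0849) or 5 (0.0755), or without HFD replicate 1 (0.0891), 3 (0.11) or 4 (0.107). It was not called with the HFD pairs summed either (0.127).

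Hoxa2, which patterns the second pharyngeal arch, fell. It was at 1.58, 2.38, 1.69, 1.68 and 1.46 CPM in LFD and 1.25, 1.01, 1.26, 0.855 and 0.8802 CPM in HFD, so each HFD library was below each LFD library (log2 fold change -0.75 ± 0.20 (SE), adjusted p = 0.014). Of its exon bases 15% are shared with Gm28308 on the same strand, and of those of Hoxa7 20.4% lie opposite exons of another gene, so part of these counts is uncertain. The uncalled genes Hoxa3, Hoxa4, Hoxa5, Hoxa9, Hoxa10, Hoxa11 and Hoxa13 overlapped between the groups. Hoxa9, a regulator of blood progenitors, was at 31.7, 41.2, 36.3, 35.7 and 17.9 CPM in LFD and 41.4, 35.05, 45.3, 40.2 and 31.4 CPM in HFD. Hoxa13, the hindgut and distal limb gene of the cluster, stayed between 1.30 and 3.49 CPM in all 10 libraries, and was called higher without LFD replicate 2. Of the noncoding RNAs, Hoxa11os, antisense to Hoxa11, rose from 8.06 ± 1.42 to 14.7 ± 0.8796 CPM (log2 fold change 0.86 ± 0.13 (SE), adjusted p = 0.000947). Hoxa11 itself, 35.0% of whose exon bases lie opposite exons of another gene, was at 22.2 ± 8.11 and 19.6 ± 1.57 CPM and was not called. Without LFD replicate 5, Hoxa3 and Hoxa11 were called lower as well, which made 4 lower Hox genes in place of 2. Over all genes, 3660 of the 16601 tested were called lower in that fit.

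In cluster B, on chromosome 11, Hoxb4, a gene known for expanding blood stem cells, was at 4.53, 2.902, 4.58, 4.35 and 3.25 CPM in LFD and 2.09, 2.12, 2.62, 2.77 and 2.54 CPM in HFD. The groups did not overlap, and it fell (log2 fold change -0.69 ± 0.18 (SE), adjusted p = 0.0115), but it was not called with the close HFD pairs summed (adjusted p = 0.0574). Hoxb2 and Hoxb3 overlapped between the groups, at 0.604 to 1.52 CPM and 1.36 to 2.92 CPM over all 10 libraries, and 52.9% of the exon bases of Hoxb3 lie opposite exons of another gene. The untested genes of the cluster were sparse. Hoxb6 had 30 counts in all LFD libraries together and 4 in all HFD libraries, Hoxb5 46 and 31, Hoxb7 15 and 8, and Hoxb8 30 and 20. Where genes of low count were tested too, Hoxb6 was called lower in HFD, by DESeq2 (adjusted p = 0.0081) and by edgeR with no filter (adjusted p = 0.0251).

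The shares of clusters A, B and D in the Hox signal did not overlap between the diets, while that of cluster C did. Cluster D took 6.04, 6.59, 7.55, 6.63 and 8.11% of all Hox counts in the LFD libraries and 13.7, 16.2, 14.4, 16.3 and 17.6% in the HFD libraries, so the groups do not overlap. Its mean share was 6.98% ± 0.831 (SD, n = 5) in LFD and 15.7% ± 1.58 in HFD. Cluster A took 41.4% ± 2.67 in LFD and 31.4% ± 1.63 in HFD, cluster C 48.6% ± 1.58 and 51.5% ± 1.19, and cluster B 3.03% ± 1.03 and 1.38% ± 0.232. The ratio of Hoxd8 counts to Hoxc10 counts, which does not depend on scaling between libraries, was 0.194, 0.191, 0.178, 0.164 and 0.267 in LFD and 0.476, 0.503, 0.407, 0.516 and 0.498 in HFD. Each HFD library was above each LFD library on this measure. These shares and ratios are descriptions with no test, since the genes were chosen with their values known.

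The summed level of the Hox genes was 269.7, 348, 367, 344 and 179.7 CPM in LFD and 437, 405, 494, 471 and 420.1 CPM in HFD, and the groups do not overlap. LFD replicate 5, the library with the most hepatocyte RNA, was the lowest. In bulk tissue fewer cells of a type and less RNA per cell cannot be told apart. The mean level of the hepatocyte markers tracked the diet label with a correlation of -0.883 over the 10 libraries, a description with no test. That level was 9.07 to 12.4 log2 CPM in LFD and 4.63 to 7.52 in HFD, so the diets did not overlap. A fit with both terms therefore cannot tell liver RNA apart from diet, for genes called or not called. With that level as a covariate, Hoxd3 (log2 fold change 2.83, adjusted p = 0.00277) and Hoxd8 (1.19, adjusted p = 0.0168) were called higher. The other 9 genes were not called, and 1057 genes in place of 6710 were called in all. The median log2 fold change over the 24 Hox genes tested turned from 0.34 to -0.28 with the covariate. Over all genes tested it was 0.02 with the covariate. Hoxd4 then had a log2 fold change of 0.29 (adjusted p = 0.638), Hoxc6 0.51 (0.247), Hoxc9 0.48 (0.32), Hoxc5 0.61 (0.18) and Hoxc4 0.27 (0.53). Hoxa7 had 0.11 (0.859), Hoxa2 -1.05 (0.163) and Hoxb4 -0.93 (0.181), and Hoxa6 turned to -0.08 (0.935).

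**Figure D5:**
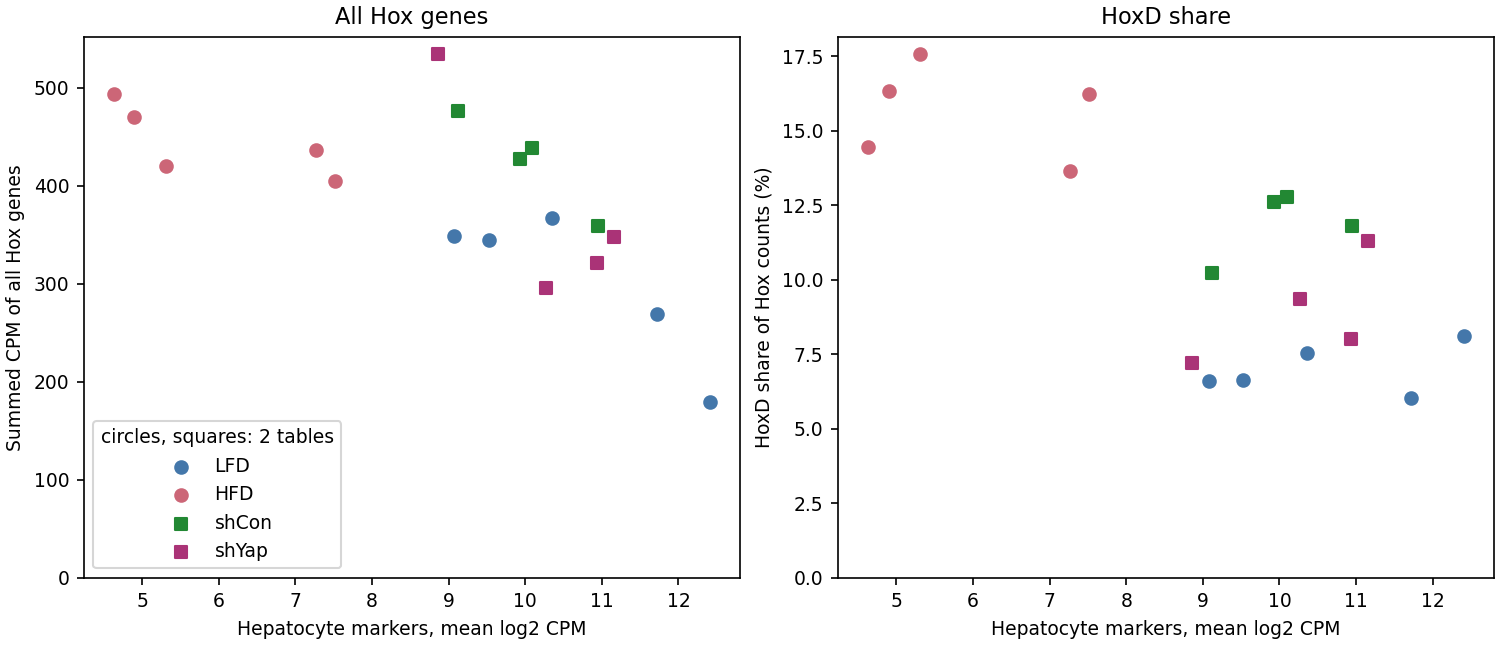
Summed CPM of the Hox genes (left) and share of Hox counts from cluster D in percent (right) against the mean log2 CPM of 12 hepatocyte markers, 1 point per library; circles are LFD and HFD, squares shCon and shYap, and the 2 tables were normalised alone. LFD replicate 5 lies lowest on the left at 179.7 CPM, and the HoxD share of the 5 HFD libraries, 13.7% to 17.6%, lies above that of the 5 LFD libraries, 6.04% to 8.11%.

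Markers of other cells also moved with the diet. The 7 fibroblast markers summed to 2904 to 5481 CPM in LFD and 6372 to 8476 CPM in HFD, which do not overlap. The 7 T cell markers summed to 28.1 to 99.5 CPM in LFD and 10.1 to 35.9 CPM in HFD, and the 5 B cell markers to 64.3 to 186 and 16.5 to 36.5 CPM. The 4 macrophage markers were at 513 to 993 CPM in LFD and 636 to 730 CPM in HFD, and the 5 endothelial markers at 80.5 to 200 and 84.5 to 113 CPM. The part of these cells in the Hox values was not tested. Of 10 colon epithelium markers, Cdx1 and Cdx2 had no row, Vil1 and Krt20 were under 1 CPM in every LFD and HFD library, and Lgr5 and Muc2 were so in every HFD library. Epcam, Krt8, Krt18 and Cdh1 passed 1 CPM in at least 1 library of each diet, and the 8 markers with a row summed to 56.1 to 556 CPM in LFD and 188 to 358 CPM in HFD. In LFD this sum ordered the libraries as the hepatocyte sum did, with replicate 5 highest and replicate 2 lowest. It is therefore no measure of colon epithelium alone, and the part of liver cells in it was not tested.

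No Hox gene was called between tumours labelled shYap and shCon. In edgeR 0 of 25 Hox genes and 0 of 16571 genes passed (0% called), while 3 Hox genes and 1804 genes (10.9%) had an unadjusted p under 0.05. DESeq2 called 405 of the 24666 genes it fitted and 1 of 29 Hox genes, of which Hoxb9 got no adjusted p, and limma voom called 0. Log2 fold changes were negative for 20 of the Hox genes tested and positive for 5, with a median of -0.30 against 0.03 over all genes tested. The groups did not overlap for 2 Hox genes that were lower in shYap, against 3.96% of all genes tested, and for 0 that were higher, against 2.61%. Without shYap replicate 3 and shCon replicate 4, the libraries farthest from the others of their groups, 1255 of 16653 genes tested were called. Of these 602 were lower. Among the 25 Hox genes 4 were called (Hoxa10, Hoxa13, Hoxc11 and Hoxd3), all 4 of them lower. Leaving out the farthest libraries narrows the spread within the groups by construction.

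Hoxd3 had the smallest p of the Hox genes, at 14.5, 15.6, 15.4 and 12.8 CPM in the libraries labelled shCon and 7.05, 5.71, 7.32 and 8.81 CPM in those labelled shYap. The groups did not overlap. The means were 14.6 ± 1.297 and 7.22 ± 1.27 CPM (SD, n = 4 each), with a log2 fold change of -1.01 ± 0.18 (SE), an unadjusted p = 0.000216 in edgeR and adjusted p = 0.153. DESeq2 called it lower (log2 fold change -1.01, adjusted p = 0.000153), and so did edgeR without the farthest library of each group (-1.08, adjusted p = 0.0183). Over the edgeR and limma alternatives the adjusted p ran from 0.0183 to 0.686. Hoxd4 was at 14.8, 17.7, 15.9 and 8.91 CPM in shCon and 5.12, 7.47, 10.04 and 11.4 CPM in shYap, with overlap through shCon replicate 4 (log2 fold change -0.75 ± 0.29 (SE), adjusted p = 0.39). The sum of Hoxd3, Hoxd4 and Gm28230 was 38.5, 49.7, 43.2 and 35.3 CPM in shCon and 19.0, 18.9, 29.7 and 27.2 CPM in shYap. It did not overlap but did not pass the test (log2 fold change -0.82 ± 0.19 (SE), adjusted p = 0.177).

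Hoxa3, a gene of the neck and of the third pharyngeal arch, was at 7.41, 9.54, 7.77 and 10.3 CPM in shCon and 3.599, 4.797, 6.01 and 7.02 CPM in shYap. Its groups did not overlap, with a log2 fold change of -0.71 ± 0.24 (SE) and adjusted p = 0.329. Hoxd8 was at 19.5, 22.7, 22.6 and 20.7 CPM in shCon and 15.6, 12.6, 21.2 and 19.1 CPM in shYap, which overlap (log2 fold change -0.32 ± 0.18 (SE), adjusted p = 0.571). Hoxc6 showed little difference, at 51.9, 52.2, 48.7 and 47.1 CPM in shCon and 48.1, 41.4, 59.4 and 45.7 CPM in shYap.

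The other genes called between the diets had hairpin values that overlap between the groups. Hoxc4 was at 29.2 ± 4.47 CPM (SD, n = 4) in shCon and 23.7 ± 8.01 in shYap, Hoxc5 at 13.1 ± 3.46 and 9.55 ± 1.34, and Hoxc9 at 19.4 ± 3.18 and 16.7 ± 4.27. Hoxa6 was at 1.59 ± 0.651 and 1.1 ± 0.592 CPM, Hoxa7 at 14.4 ± 3.198 and 14.8 ± 2.896, Hoxa2 at 1.905 ± 0.3996 and 1.44 ± 0.615, and Hoxb4 at 4.76 ± 0.644 and 4.39 ± 0.668. Cluster D took 10.2, 12.8, 12.6 and 11.8% of Hox counts in the libraries labelled shCon and 9.37, 8.03, 7.21 and 11.3% in those labelled shYap, so 1 shYap library reached into the shCon range. The summed Hox level was 476, 438, 428 and 359 CPM in shCon and 296, 321, 534 and 348 CPM in shYap. The highest library, shYap replicate 3, had the lowest mean log2 CPM of the hepatocyte markers of the 8, at 8.86. By their summed CPM shCon replicate 1 was lower, at 11822 against 14134. The part of liver RNA in the summed Hox level was not tested. The 7 T cell markers summed to 32.9 to 73.6 CPM in shCon and 15.3 to 26.0 CPM in shYap, which do not overlap. The 7 fibroblast markers summed to 4928 to 5616 CPM in shCon and 2694 to 5296 CPM in shYap, which overlap. Both were lower on average in shYap, as Hoxd3 and Hoxa3 were, and their part in the Hox values was not tested.

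HFD and shCon tumours both came from high-fat-fed mice but stand in tables normalised apart, so their levels are set side by side with no test. Hoxd3 was at 12.4 ± 1.79 CPM in HFD and 14.6 ± 1.297 in shCon, against 1.41 ± 0.358 in LFD. Hoxd8 was at 34.5 ± 1.81, 21.4 ± 1.56 and 11.1 ± 2.23 CPM in HFD, shCon and LFD, and Hoxc6 at 62 ± 13.3, 49.96 ± 2.47 and 27.2 ± 4.496 CPM. In the same order, Hoxc4 had means of 23.1, 29.2 and 12.6 CPM, and Hoxc5 of 12.7, 13.1 and 6.54 CPM. Hoxc9 had means of 20.9, 19.4 and 9.82 CPM, and Hoxd4 of 22.5, 14.3 and 8.31 CPM. Other genes had shCon means close to those of LFD. Hoxa7 was at 21.8 ± 1.46, 14.4 ± 3.198 and 12.4 ± 4.29 CPM in HFD, shCon and LFD. Hoxa6 was at 2.86 ± 0.726, 1.59 ± 0.651 and 1.78 ± 0.4999 CPM, and Hoxa2 at 1.05 ± 0.194, 1.905 ± 0.3996 and 1.76 ± 0.361 CPM. For Hoxb4, which fell in HFD, the means were 2.43 ± 0.305 CPM in HFD, 4.76 ± 0.644 in shCon and 3.92 ± 0.785 in LFD. The hepatocyte markers summed to 552 to 5094 CPM in HFD, 11822 to 42871 in shCon and 11458 to 106839 in LFD.

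The genes that work with or on Hox genes were looked at by lists. Of 8 cofactors, which bind DNA beside Hox proteins, 1 was higher and 0 lower in HFD. Beside these list counts stand the 19.4% of all genes tested that were called higher and the 21.6% called lower, and no list was tested as a set. Meis2 rose from 27.3 ± 5.65 to 36.6 ± 1.87 CPM (log2 fold change 0.42 ± 0.14 (SE), adjusted p = 0.035). The median log2 fold change of the list was 0.12. Of 28 Polycomb genes, whose complexes keep Hox genes silent, 13 were higher and 0 lower, against 19.4% and 21.6% of all genes tested, and their median was 0.24. Phf1 (0.81 ± 0.11 (SE)), Pcgf6 (0.65 ± 0.09 (SE)) and Phc1 (0.85 ± 0.12 (SE)) had the smallest adjusted p, 0.000517, 0.000797 and 0.000877. Of 18 Trithorax and MLL genes, whose complexes keep Hox genes active, 9 were higher and 0 lower, against 19.4% and 21.6% of all genes tested, with a median of 0.25. They were led by Men1 (0.77 ± 0.07 (SE), adjusted p = 9.19e-05), Wdr5 (0.48 ± 0.08 (SE), adjusted p = 0.00191) and Psip1 (0.51 ± 0.10 (SE), adjusted p = 0.00324). The hepatocyte markers were lower in HFD, and the part of the mix of cells in the values of these lists was not tested.

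Of 13 tested genes of the caudal and retinoid list, 0 were higher and 5 lower, with a median of -0.46, where 19.4% of all genes tested were called higher and 21.6% lower. Rxrg, a retinoid receptor, went from 2.63 ± 1.95 to 0.1096 ± 0.0817 CPM (-4.47 ± 0.71 (SE), adjusted p = 0.0012). Cyp26a1, which degrades retinoic acid, went from 7.37 ± 7.42 to 0.5499 ± 0.158 CPM (-3.71 ± 0.81 (SE), adjusted p = 0.00562), and Rxra, a retinoid receptor, from 236 ± 145 to 79.3 ± 11.5 CPM (-1.57 ± 0.37 (SE), adjusted p = 0.00841). Rxra and Cyp26a1 are known as genes of liver cells, and the hepatocyte markers were lower in HFD too, as given above. The part of liver cells in these values was not tested. Of 7 tested noncoding RNAs of the clusters, 5 were higher and 0 lower, and of 8 genes that flank the clusters 4 were higher and 2 lower, against the same shares of all genes. Of the latter, Hibadh, a valine-degrading enzyme beside cluster A, went from 192 ± 109.9 to 62.2 ± 2.53 CPM (-1.63 ± 0.33 (SE), adjusted p = 0.00403). Skap1, a T cell adaptor beside cluster B, went from 2.72 ± 1.29 to 0.712 ± 0.336 CPM (-1.93 ± 0.42 (SE), adjusted p = 0.00546). Of the ParaHox and other homeobox list 1 gene was tested, and it was not called. In tumours labelled shYap no gene of any of these lists was called against shCon in edgeR.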

How the data were processed

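RNA was measured in 18 liver tumour libraries. The authors deposited estimated counts, partly fractional (60.1% and 62.5% of values were whole), in separate tables of 22137 genes (LFD, HFD) and 24778 genes (shCon, shYap). STAR 2.7.3a, Partek and DESeq2 are named for GRCm38 and mm10, per the submitters' processing notes. The annotation and strand used are not given in the sources used here. Symbol, chromosome and start matched GENCODE M21 for 97.4% and 97.1% of genes. Deposited ends were 1 above those of GENCODE for the Hox genes, so ends are those of GENCODE.

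Estimated counts were rounded, and each table was fitted alone in edgeR 4.0.16 under R 4.3.3 with TMM factors after filterByExpr, by the quasi-likelihood F test with robust dispersions, without covariates, and p-values were adjusted by Benjamini-Hochberg over all genes tested (threshold 0.05). CPM uses the TMM-scaled total, and SE is the log2 fold change over the square root of F. The test was tried on simulated counts. Limits from a count of 0 (3 counts) cover counting error only, and molecules were not tagged.

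Groups follow the sample labels. Members and gene lists were chosen with earlier results of these data known. Some genes of the family and the lists are not reported here, and they stay in the fits over all genes. Named genes are the members called, the highest per kb in each cluster, members under an unadjusted p of 0.05 in the hairpin table, and up to 3 called genes of a list by p. Alternatives were DESeq2 1.42.0, limma 3.58.1 voom, other scaling and filters, replicate blocks, a hepatocyte covariate and left-out or summed libraries. Summing Hoxd3, Hoxd4 and Gm28230 was added after seeing the data.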

Additional observations from a re-analysis of the deposited data

Results flagged for a closer look

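Over 48 pairs of a tested Hox gene and a group in the LFD and HFD table and 50 in the hairpin table, 8 had a highest or lowest library whose gap to the nearest other library was a large part of the group's range (Dixon's test at 95%). Chance gives about 1 such pair in 20. Hoxa2 was highest in LFD replicate 2, at 2.38 CPM, and Hoxc11 lowest in LFD replicate 5, at 8.63 CPM. Hoxd3 was lowest in HFD replicate 1, at 9.32 CPM, still above every LFD library. In shYap replicate 3, Hoxa9 at 72.3 CPM, Hoxa10 at 30.3 CPM, Hoxa13 at 3.97 CPM and Hoxc10 at 133 CPM stood above the other 3 shYap libraries. Some genes of lower number were highest there too, such as Hoxa4 at 14.9 CPM and Hoxc4 at 35.1 CPM, as was the summed Hox level at 534 CPM. Among the tested genes, Hoxa3, Hoxb2, Hoxc5, Hoxc8, Hoxc13, Hoxd3 and Hoxd4 were highest in shYap replicate 4 instead, and Hoxb5 in shYap replicate 2. Hoxc13 was lowest in shCon replicate 1, at 10.5 CPM.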

How the results depend on the processing

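For HFD against LFD, 9 Hox genes were higher and 2 lower. The count of higher genes stayed between 7 and 9 under the other alternatives with all libraries or with pairs summed, except 2 with the hepatocyte covariate. That covariate, whose level did not overlap between the diets, left 0 lower genes. Summing HFD replicates 1 and 2 and replicates 3 and 4 left 1 lower gene and 7 higher. The calls over all genes moved too, from 3178 higher and 3532 lower to 2056 and 2177 with those pairs summed. With DESeq2 and with no filter 3 Hox genes were lower, the added one being Hoxb6 (adjusted p = 0.0081 and 0.0251). Over all genes 4655 and 3987 were lower in these fits. Leaving out 1 library gave 8 to 10 higher and 2 to 4 lower Hox genes, the 4 without LFD replicate 5. Over all genes it gave 2606 to 3593 higher and 2903 to 3794 lower, with 3593 and 3660 without LFD replicate 5. Hoxc13 joined the higher genes without LFD replicate 2 or without LFD replicate 5, and Hoxa13 without LFD replicate 2. The log2 fold change of Hoxa6 turned to -0.076 with the covariate, and the cause was not tested. Hoxa6 was not called with limma voom (adjusted p = 0.0578), RLE factors (0.0505) or no filter (0.0555), and Hoxa6, Hoxa7 and Hoxb4 were not called with the pairs summed (0.127, 0.0571 and 0.0574).

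For shYap against shCon, the count of lower Hox genes was 1 with DESeq2 and 4 without the farthest library of each group, in place of 0, and 0 with any single library left out. Over all genes, 282 were lower with DESeq2 and 602 without the farthest libraries. Some log2 fold changes changed sign. With the column numbers as a replicate block Hoxa6 went from -0.53 ± 0.50 (SE) to 0.0037 and Hoxb4 from -0.12 to 0.030. Hoxa7 went from 0.04 to -0.23 without the farthest libraries. With 1 library left out Hoxa7 ran from -0.10 (without shCon replicate 4) to 0.14, also below 0 at -0.062 without shYap replicate 3, and Hoxc6 from -0.12 to 0.032 (without shYap replicate 2).

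Libraries of the same replicate number did not deviate together (correlations of 0.315, -0.500, 0.103, 0.304 and -0.272 for LFD and HFD, and 0.00557, -0.0522, 0.182 and 0.178 for shCon and shYap), and 0 of 5 and 1 of 4 numbers correlated best with their own. With the replicate number as a block 9 Hox genes were higher and 2 lower in HFD, of 4929 genes called, and 0 Hox genes were called in shYap. Sums by cluster used the TMM-scaled total. With the unscaled total the sum of cluster A in HFD moved from 139.9 to 153 CPM and that of all Hox genes described from 445 to 488 CPM. Genes under 1 CPM, most of cluster B, rest on few counts at this depth.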

Other observations

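By paralog number, genes numbered 10 took 29.6% ± 2.91 (SD, n = 5) of Hox counts in LFD and 23.1% ± 0.753 in HFD, and those numbered 11 took 13.2% ± 2.08 and 9.08% ± 0.819. Genes numbered 3 took 2.74% ± 0.424 in LFD and 4.09% ± 0.51 in HFD, those numbered 6 10.1% ± 1.98 and 14.5% ± 1.92, and those numbered 8 5.33% ± 0.541 and 9.04% ± 0.863. Genes numbered 9 took 14.1% ± 0.7798 and 13.4% ± 1.002, and those numbered 13 3.49% ± 0.589 and 3.58% ± 0.272. In the libraries labelled shCon and shYap, genes numbered 10 took 25.3% ± 0.708 (SD, n = 4) and 28.4% ± 1.59, those numbered 3 took 6.28% ± 0.8096 and 4.21% ± 0.7798, and those numbered 8 took 6.75% ± 0.482 and 5.79% ± 0.9796. These shares add to 100 in each library, so they cannot vary apart from each other, and they have no test.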
